A study of Mus musculus with 6 samples.

Results

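Genes that make or import amino acids, 10 in all, were followed in Hepa1-6 cells with and without Matr3: Phgdh, Psat1 and Psph of serine synthesis, Shmt2 and Mthfd2 of mitochondrial folate metabolism, Asns of asparagine synthesis, Aldh18a1 and Pycr1 of proline synthesis, and the plasma membrane transporters Slc7a5 and Slc7a11. The members, 10 of the 55573 rows of the count table, were taken by gene symbol. Hepa1-6 is a mouse liver cancer line, grown here in DMEM with fetal bovine serum. Bulk RNA-seq compared 3 libraries of a CRISPR/Cas9 knockout of Matr3 with 3 of wild-type cells, and no further treatment is named for either group. Matr3 encodes matrin 3, a nuclear matrix protein that binds RNA and DNA. Guides, clones and the wild-type cells' handling are not described in the labels, nor is it stated if replicate libraries stem from separate cultures. P-values therefore measure only library-to-library spread, which may be technical.

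Serine is made from the glycolytic intermediate 3-phosphoglycerate in 3 enzymatic steps. The hydroxymethyl group of serine then feeds folate metabolism, which supplies carbon units for nucleotides and methionine. Asparagine is made from aspartate with nitrogen from glutamine, and proline from glutamate. Many genes of this supply chain are known targets of the transcription factor ATF4, whose protein is made from a mainly translationally controlled mRNA when amino acids run short or the endoplasmic reticulum is stressed. ATF4 binds, with C/EBP proteins, a composite DNA element. Standard DMEM contains serine and glycine but neither asparagine nor proline.

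Sequence upstream of the members is shown because this composite element is the one through which ATF4 is known to act on genes of amino acid supply. RefSeq promoter windows of build GRCm38.p6, which run from 250 bases before to 50 bases after an annotated start, were found for 9 of the 10 members, in 10 windows; Slc7a5 was not matched. The letters TGATGNAA, searched on both strands, occurred in the windows of 3 members: Asns, Slc7a11 and Pycr1. They were found in 3.97% of all 32851 windows and in 2.27% of the 12887 windows of genes tested here. The stretches around the matches follow, each 5′ to 3′ on the gene's strand, with the matched letters in capitals.
Asns, chr6:7693199-7693258, minus strand: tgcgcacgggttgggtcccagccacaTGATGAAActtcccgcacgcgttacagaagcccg
Slc7a11, chr3:50443627-50443705, minus strand: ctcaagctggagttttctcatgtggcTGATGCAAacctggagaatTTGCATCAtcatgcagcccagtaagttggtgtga
Pycr1, chr11:120643818-120643877, minus strand: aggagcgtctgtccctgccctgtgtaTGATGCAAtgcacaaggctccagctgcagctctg
The Asns match began 23 bases before the annotated start and the Pycr1 match 103 bases before it. Slc7a11 held a pair of matches in opposite orientation, beginning 66 and 47 bases before the start. The antioxidant element TGACNNNGC, the letters bound by NRF2, occurred in the windows of Asns, Phgdh and Psph, against 14.3% of windows of tested genes, and the E-box CACGTG in that of Aldh18a1, against 9.70%. A match describes letters in this window and is not a measured binding site.

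Libraries held 20736570 to 30794032 counts, and each member had at least 447 counts in every library. Knockout library 2 stood apart: across genes, its deviation from the mean of all libraries correlated with GC content at -0.26, against 0.25 in knockout libraries 1 and 3 and -0.15 to -0.025 in the wild type. Counts were seen for 23440 genes in wild-type library 1 and for 20450 to 21217 in each other library. The Matr3 transcript stood at 75.3 to 86.1 CPM (counts scaled to library size) in knockout libraries and at 125 to 134 CPM in wild-type ones (log2 fold change -0.71, edgeR adjusted p = 0.00270). It was lowered and not lost, and counts per gene do not show the edited site. Of 10 liver markers, 6, among them albumin (Alb), transthyretin (Ttr) and Hnf4a, stayed under 0.1 FPKM (counts scaled by gene length and library size) in every library, while the epithelial keratins were abundant and rose. Krt8 was at 384 to 390 FPKM in the knockout against 181 to 228 in the wild type (log2 fold change 0.88, edgeR adjusted p = 0.00200), and Krt18 at 181 to 215 against 143 to 162 FPKM (0.39, edgeR adjusted p = 0.0338). The liver marker Afp went the other way, lower in every knockout library than in any wild-type one, but did not pass. Its mean was 0.828 FPKM in the knockout and 1.42 in the wild type (log2 fold change -0.79, edgeR adjusted p = 0.0505). Apoa2 overlapped between groups (log2 fold change 0.301, edgeR adjusted p = 0.631). The leukocyte markers Ptprc and Adgre1 were at 0.01 FPKM or less, and of 7 fibroblast markers Col3a1 was at 52.4 to 68.2 FPKM while Dcn, Lum and Thy1 were at 0.03 or less. The summed level of the fibroblast list overlapped between groups (55.2 to 66.7 FPKM in the knockout, 59.1 to 70.4 in the wild type) and was nearly all Col3a1, while its Col1a1 rose (2.33 to 3.64 FPKM in the knockout, 1.67 to 1.91 in the wild type; log2 fold change 0.81, edgeR adjusted p = 0.0198). The summed level of 8 leukocyte markers was higher in the knockout (17.2 to 20.96 against 13.0 to 15.4, nearly all from Cd68 and Cd14), and that of 6 endothelial markers was lower (0.226 to 0.338 against 0.661 to 0.844, mostly Cdh5). Neither Cd68 nor Cd14 passed (edgeR adjusted p = 0.124 and 0.0564), while Cdh5 was called lower (log2 fold change -2.27, edgeR adjusted p = 0.00413). The part of these markers in the results was not tested.

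Most of the amino acid supply genes rose in the Matr3 knockout. Of the 10 members 6 rose: Pycr1, Psph, Asns, Slc7a11, Aldh18a1 and Shmt2, by 1.29-fold to 1.82-fold. None fell: Mthfd2, Slc7a5, Psat1 and Phgdh did not pass (edgeR quasi-likelihood test, with p adjusted by Benjamini-Hochberg over all tested genes and called under 0.05). All 10 were among the 14842 tested genes, of which 7.69% were called higher and 7.48% lower. In 8 members every knockout library lay above every wild-type library, as it did in 18.3% of tested genes. The median log2 fold change was 0.39 over the members and -0.019 over all tested genes. The members were chosen with earlier results of these data known, so these comparisons describe them and are not a test. At an unadjusted p under 0.05, 8 members were higher and 0 lower, while counts called higher were 7 by DESeq2, 6 by limma voom and 6 by limma on log2(FPKM + 1), with 0 lower in each. In bulk RNA a change in a fraction of the cells and a change in every cell cannot be told apart.

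**Figure D1:**
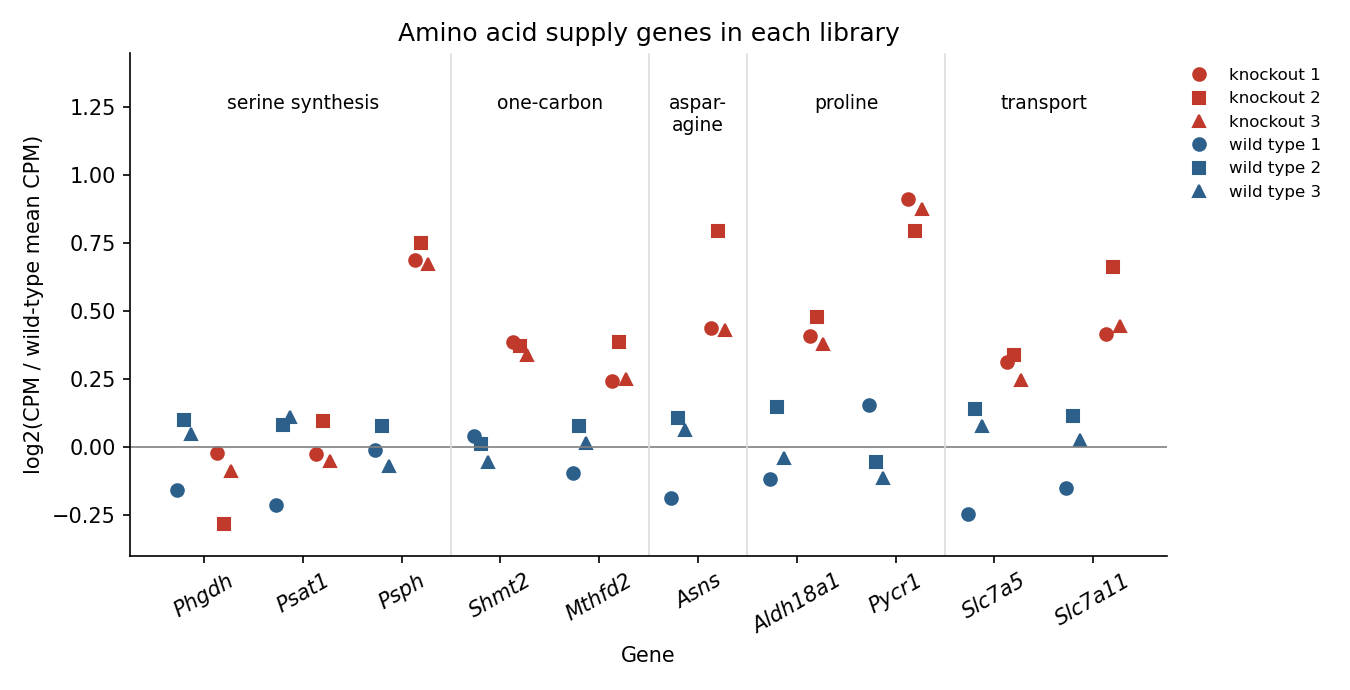
Each point is the CPM of a gene in 1 library, as log2 of its ratio to the wild-type mean (y axis), for the 10 members grouped by role (x axis); red marks knockout and blue wild-type libraries, and shapes the replicate numbers. The knockout points of Psph and Pycr1 lie between 0.67 and 0.91, those of Phgdh and Psat1 between -0.28 and 0.10, within or below the wild-type points.

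In serine synthesis the last enzyme rose and the first and second did not. Phgdh, which oxidises 3-phosphoglycerate and commits carbon to the pathway, was at 627, 524 and 600 CPM in the knockout and 571, 683 and 659 CPM in the wild type. The groups overlapped, knockout library 2 being the lowest of all 6, and the log2 fold change was -0.13 (SE 0.110, edgeR adjusted p = 0.469). It ranged from -0.18 without wild-type library 1 to -0.051 without knockout library 2, was -0.071 without wild-type library 2 and -0.24 after removal of the GC and length trends, and passed only without both libraries that stood apart (-0.13, edgeR adjusted p = 0.0289). That fit, without knockout library 2 and wild-type library 1, called 7556 genes in all, against 2252 with all 6 libraries. Psat1, the transaminase of the second step, was at 729, 792 and 716 CPM in the knockout and 640, 785 and 800 CPM in the wild type, which overlapped as well (log2 fold change 0.0075, SE 0.111, edgeR adjusted p = 0.971). Psph, which removes the phosphate to release serine, behaved differently from both. It was at 143, 149 and 141 CPM in the knockout and 87.9, 93.4 and 84.3 CPM in the wild type, means of 144 ± 4.10 and 88.5 ± 4.57 CPM (SD, n = 3 each). The knockout libraries lay within 8 CPM of each other and far from the wild type, a 1.63-fold difference (log2 fold change 0.70, SE 0.0832, edgeR adjusted p = 0.00223). Per gene length, Phgdh stood at 12.6 ± 1.16 times Psph in the wild type and 7.07 ± 0.823 times in the knockout (FPKM ratio, SD, n = 3 each), a ratio chosen after the values were seen. Psph (ENSMUSG00000029446; chromosome 5, 129842622 to 129864513, minus strand) shares 452 bases with Cct6a on the other strand, a chaperonin gene with 100359 counts in all against 18578 for Psph. Strandedness of the counting is not stated, so reads from the shared stretch cannot be told apart. Cct6a itself had a log2 fold change of -0.25 and did not pass (edgeR adjusted p = 0.214). The part of the shared stretch in the Psph counts was not tested. Phgdh (ENSMUSG00000053398) is annotated at chromosome 3, 98220486 to 98247306, and Psat1 (ENSMUSG00000024640) at chromosome 19, 15882042 to 15924701, both on the minus strand.

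In folate metabolism the mitochondrial Shmt2 rose and Mthfd2 did not pass, while their cytosolic counterparts fell. Shmt2 (ENSMUSG00000025403; chromosome 10, 127352992 to 127358313, minus strand), which splits serine into glycine and a folate-bound carbon unit in mitochondria, was at 516, 510 and 499 CPM in the knockout and 405, 398 and 380 CPM in the wild type. Its libraries were the tightest of all members relative to their level, and Shmt2 rose 1.29-fold (508 ± 8.56 against 394 ± 13.0 CPM, SD, n = 3 each; log2 fold change 0.37, SE 0.0816, edgeR adjusted p = 0.0215). The call ended with the GC and length trends of each library removed (log2 fold change 0.28, edgeR adjusted p = 0.102) with the replicate number as a block (0.37, edgeR adjusted p = 0.0707) and with no filter on low counts (0.41, edgeR adjusted p = 0.0569). Mthfd2 (ENSMUSG00000005667; chromosome 6, 83282673 to 83302890, minus strand) oxidises that unit further. It was at 271, 300 and 272 CPM in the knockout and 214, 242 and 232 CPM in the wild type. The groups did not overlap, but the log2 fold change of 0.30 did not pass (SE 0.0911, edgeR adjusted p = 0.0627), although it was called by DESeq2 (adjusted p = 0.0474), with library totals alone (edgeR adjusted p = 0.0340), with genes averaging at least 1 CPM (0.0447) and without both libraries that stood apart (0.00318). The last of these fits called 7556 genes in all.

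Among other genes of serine, glycine and folate metabolism more fell than rose. Of 27 listed genes 22 were tested; 1 rose, 8 fell and 13 did not pass, with a list median of -0.17, and in background 7.69% of tested genes rose and 7.48% fell. The gene that rose was Aldh1l2, the mitochondrial formyltetrahydrofolate dehydrogenase, at 256, 287 and 248 CPM in the knockout against 109, 98.6 and 98.4 CPM in the wild type. That is a 2.59-fold difference (log2 fold change 1.37, SE 0.0964, edgeR adjusted p = 0.000242), larger than that of any member. Cth, which makes cysteine from cystathionine, was nearly absent in the knockout, at 0.43, 0.73 and 0.35 CPM (10, 23 and 10 counts) against 7.37, 9.54 and 7.88 CPM (log2 fold change -4.00, SE 0.288, edgeR adjusted p = 0.000246). Mat2a, which makes the methyl donor S-adenosylmethionine, fell from 323 to 191 CPM (log2 fold change -0.76, edgeR adjusted p = 0.00229). The cytosolic counterparts of the members fell as well: Shmt1 by 0.48 and the trifunctional enzyme Mthfd1 by 0.41 on the log2 scale, as did Mthfd2l, a mitochondrial paralogue of Mthfd2, by 0.47 (edgeR adjusted p = 0.00880, 0.0222 and 0.0271). Shmt1 lost its call without any 1 of 4 libraries, the first or the third of the knockout and the second or the third of the wild type (edgeR adjusted p from 0.0530 to 0.0801). Mthfd1 lost it without any 1 of the same 4 (0.103 to 0.137), with the replicate number as a block (0.0567) and with no filter on low counts (0.0843). Mthfd2l lost it without any 1 of 5 libraries, all but knockout library 2 (0.0593 to 0.130), with the block (0.0567), with no filter (0.0808) and after removal of the GC and length trends (0.122). The remaining falls were those of Gcsh, Gart and Slc25a32. The list's count of falls was 3 without any 1 of these 4 libraries and 5 with the block. Its count of rises was 3 without knockout library 2, 2 without wild-type library 1 and 5 without both. Without both, 14 fell, in a fit that called 7556 genes in all.

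Balance between paired enzymes was read within each library as a ratio of FPKM values, which are per gene length. The Shmt2 to Shmt1 ratio was 7.98, 7.80 and 8.15 in the knockout and 4.86, 4.33 and 4.16 in the wild type. The groups did not overlap, and the log2 difference was 0.85. The Mthfd2 to Mthfd1 ratio was 2.21, 2.51 and 2.29 against 1.47, 1.40 and 1.43, a log2 difference of 0.70. Both mitochondrial to cytosolic ratios were thus higher in 3 of 3 knockout libraries. For each of them the two-sided exact permutation p was 0.1, the smallest that 3 against 3 libraries can give, and 0.167 adjusted over the 5 ratios computed, 4 of which are given, so neither can pass the threshold in this design.

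**Figure D2:**
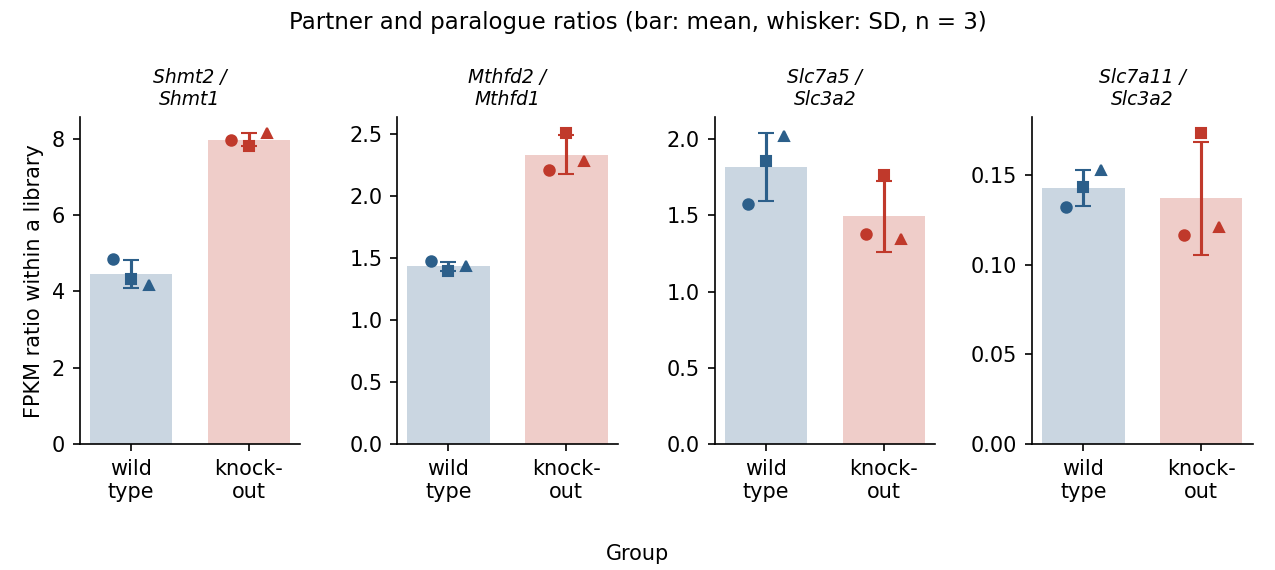
Ratios of FPKM values within each library (y axis, starting at 0) for 4 enzyme or transporter pairs, in wild type (blue) and knockout (red); bars are means, whiskers SD over 3 libraries and points single libraries. Neither enzyme ratio overlaps between groups, while both transporter ratios to Slc3a2 do.

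Asparagine synthetase was the member with the widest spread among knockout libraries. Asns (ENSMUSG00000029752; chromosome 6, 7675169 to 7693254, minus strand), whose promoter match is printed above, makes asparagine from aspartate and glutamine. It was at 344, 441 and 342 CPM in the knockout and 223, 273 and 265 CPM in the wild type. All knockout libraries were above the wild type, and knockout library 2 was highest, so that Asns rose 1.48-fold (376 ± 56.3 against 254 ± 27.0 CPM, SD, n = 3 each; log2 fold change 0.57, SE 0.131, edgeR adjusted p = 0.0251). The call ended without any 1 of 5 libraries (knockout 1 or 3, wild type 1, 2 or 3, edgeR adjusted p from 0.0526 to 0.0807). Without both libraries that stood apart, where 7556 genes in all were called, the log2 fold change was 0.35 (edgeR adjusted p = 4.46e-05). Freed of the GC and length trends it was 0.52 (edgeR adjusted p = 0.0150).

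Both listed enzymes of proline synthesis rose. Aldh18a1 (ENSMUSG00000025007; chromosome 19, 40538701 to 40576907, minus strand) turns glutamate into the precursor of proline and ornithine. It was at 292, 307 and 286 CPM in the knockout and 203, 244 and 214 CPM in the wild type, a 1.34-fold rise with no overlap (log2 fold change 0.42, SE 0.0971, edgeR adjusted p = 0.0238). Aldh18a1 shares 522 bases with the processed pseudogene Gm15801, which holds 1653 counts in all against 41038 for Aldh18a1, and the counting could split reads between them. Pycr1 (ENSMUSG00000025140; chromosome 11, 120526538 to 120534595, minus strand) is the mitochondrial reductase of the last step. It was at 35.3, 32.5 and 34.4 CPM in the knockout and 20.9, 18.0 and 17.3 CPM in the wild type. Knockout library 2, the highest for Asns, was the lowest of the knockout libraries here. The rise of 1.82-fold was the largest among the members (34.1 ± 1.42 against 18.7 ± 1.87 CPM, SD, n = 3 each; log2 fold change 0.86, SE 0.107, edgeR adjusted p = 0.00252). Its cytosolic paralogue Pycr3, named Pycrl in the table, had a log2 fold change of -0.13 (edgeR adjusted p = 0.451).

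Among other genes around glutamate, aspartate and proline the calls went both ways. Of 23 listed genes 22 were tested: 3 rose, 3 fell and 16 did not pass (median 0.069). That is 13.6% higher and 13.6% lower, beside 7.69% and 7.48% over all tested genes. Gls2, whose product releases glutamate from glutamine, rose from 5.12 to 9.25 CPM (log2 fold change 0.85, edgeR adjusted p = 0.00531). Gpt2, the mitochondrial alanine transaminase, rose from 166 to 231 CPM (0.48, edgeR adjusted p = 0.0107). Glul also rose, and the mitochondrial carriers Slc25a22 and Slc25a12 fell. Counts of falls ranged from 0 to 3 and of rises from 1 to 5 when single libraries were left out; the 0 came from leaving out the first or the third knockout library or the third of the wild type.

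Of the transporters, Slc7a11 rose and Slc7a5 did not pass. Slc7a11 (ENSMUSG00000027737; chromosome 3, 49846975 to 50398063, minus strand) is the light chain of system xc-, which takes up cystine in exchange for glutamate. It was at 195, 232 and 199 CPM in the knockout and 132, 158 and 149 CPM in the wild type, with no overlap and a 1.43-fold rise (log2 fold change 0.51, SE 0.108, edgeR adjusted p = 0.0178). Freed of the GC and length trends, its log2 fold change was 0.68 (edgeR adjusted p = 0.00233). Slc7a5 (ENSMUSG00000040010; chromosome 8, 122607889 to 122634433, minus strand) is LAT1, which imports leucine and other large neutral amino acids. It was at 616, 627 and 589 CPM in the knockout and 418, 546 and 524 CPM in the wild type. The groups did not overlap, but wild-type library 1 lay far below the other wild-type libraries, and the log2 fold change of 0.30 did not pass (SE 0.115, edgeR adjusted p = 0.117). Both transporters need the heavy chain encoded by Slc3a2. Slc3a2 rose from 260 ± 17.8 to 394 ± 48.0 CPM (SD, n = 3 each; log2 fold change 0.60, SE 0.114, edgeR adjusted p = 0.0120), a call lost when the first or the third knockout library or the third of the wild type was left out (edgeR adjusted p from 0.0551 to 0.0662). In knockout library 2 Slc3a2 was lowest of the knockout (338 against 425 and 418 CPM), where Slc7a11 was highest. The FPKM ratios to Slc3a2 overlapped between groups: 1.38, 1.76 and 1.34 against 1.58, 1.86 and 2.02 for Slc7a5, and 0.117, 0.173 and 0.121 against 0.132, 0.143 and 0.153 for Slc7a11 (log2 differences -0.28 and -0.082; two-sided exact permutation p = 0.2 and 0.7, adjusted 0.25 and 0.7).

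Among 28 other amino acid transporters 19 were tested; 2 rose, 4 fell and 13 did not pass (median 0.15), beside 7.69% higher and 7.48% lower over all tested genes, so that the rises lay near the background. Beside Slc3a2, the glycine transporter Slc6a9 rose from 39.4, 40.5 and 40.1 to 73.4, 73.1 and 71.3 CPM. This difference was 1.81-fold with very little spread (log2 fold change 0.86, SE 0.0765, edgeR adjusted p = 0.000685). Slc7a7, a light chain for cationic amino acids, fell from 3.33 to 1.00 CPM (-1.72, edgeR adjusted p = 0.00751); Slc7a6, Slc38a4 and Slc16a10 fell as well. The count of falls was 1 without any 1 of the same 4 libraries as in the folate list; that of rises was 1 without the first or the third knockout library or the third of the wild type, and 4 without wild-type library 1.

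The order of the members by level was the same in both groups, with a narrower range in the knockout. By mean FPKM it ran Phgdh, Psat1, Slc7a5, Shmt2, Asns, Mthfd2, Aldh18a1, Psph, Slc7a11, Pycr1. Phgdh was at 255 ± 26.2 FPKM in the wild type and 235 ± 20.4 in the knockout, and Pycr1 at 4.73 ± 0.418 and 8.66 ± 0.317 (SD, n = 3 each). The mean of the highest member was 53.9 times that of the lowest in the wild type and 27.1 times in the knockout. In the wild type only Slc7a5 and Shmt2 overlapped among neighbours in this order. In the knockout Psat1 overlapped Slc7a5, Slc7a5 overlapped Shmt2 and Shmt2 overlapped Asns, at means of 175, 165, 164 and 137 FPKM.

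**Figure D3:**
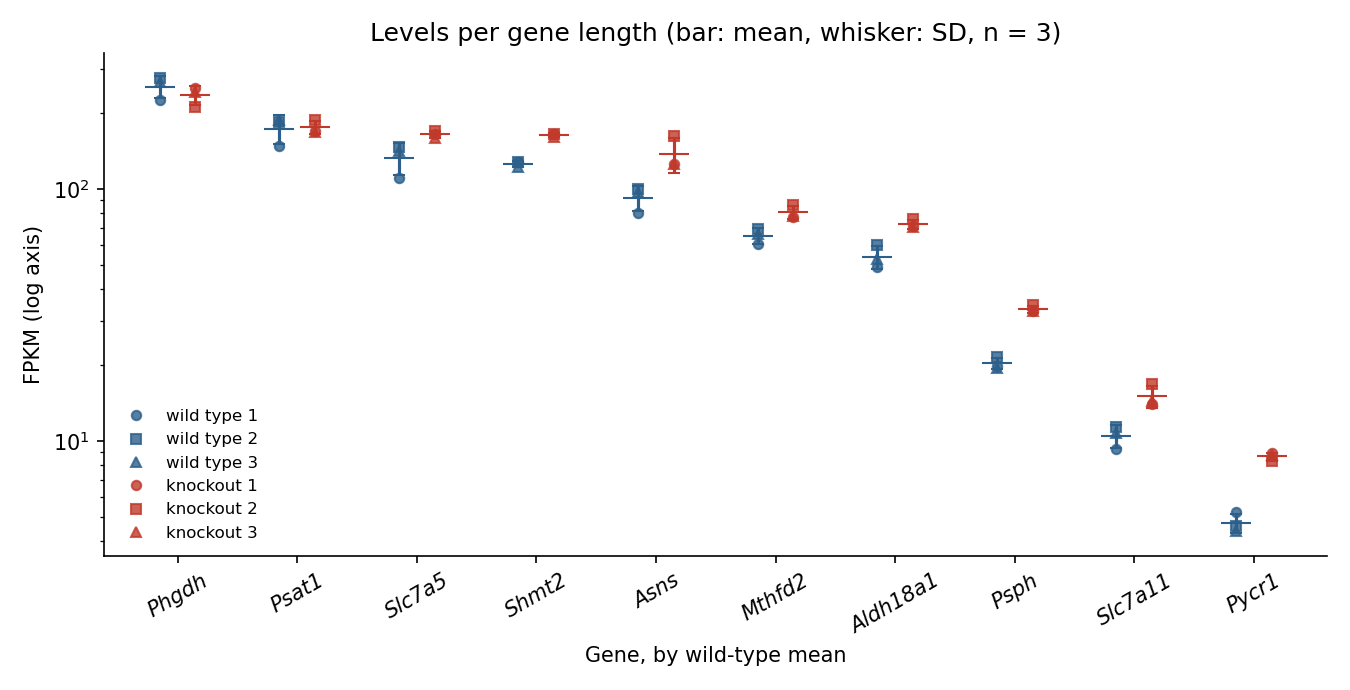
FPKM per library (log y axis) for the 10 members, ordered by their wild-type mean (x axis); points are libraries, bars group means and whiskers SD over 3 libraries. Members range from 4.73 (Pycr1) to 255 (Phgdh) in the wild type, and the groups of Psph and Pycr1 are clearly apart.

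Further genes of the amino acid response were read from 3 lists. Of 20 cytosolic aminoacyl-tRNA synthetase genes, which charge tRNAs with amino acids, 5 rose, 0 fell and 15 did not pass (edgeR quasi-likelihood test; median 0.25; background 7.69% higher). Those for alanine (Aars, 419 to 560 CPM, log2 fold change 0.42), asparagine (Nars, 624 to 817 CPM, 0.39) and arginine (Rars, 467 to 603 CPM, 0.37) had the smallest p (edgeR adjusted p = 0.0218, 0.0222 and 0.0327), followed by Mars1 and Lars. The calls depended on the libraries and the design: 0 of the 20 rose with the replicate number as a block, at an adjusted p under 0.01, or without any 1 of the same 4 libraries. At an unadjusted p under 0.05, 10 were higher and 2 lower. DESeq2 called 7 higher, limma voom 5 and limma on log2(FPKM + 1) 4, with 0 lower in each. Without both libraries that stood apart, where 7556 genes in all were called, 11 were called higher and 4 lower.

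Atf4 mRNA itself was not separated between groups. It was at 970, 611 and 963 CPM in the knockout and 792, 881 and 766 CPM in the wild type (log2 fold change 0.061, SE 0.174, edgeR adjusted p = 0.840). Knockout library 2 was the lowest of all 6 and knockout libraries 1 and 3 the highest, and the sign turned without knockout library 1 (-0.017) or 3 (-0.014) and after removal of the GC and length trends (-0.076). Without both libraries that stood apart Atf4 was called higher (0.23, edgeR adjusted p = 0.00531), in a fit that called 7556 genes in all, against 2252 with all 6 libraries. Of 23 tested genes of ATF4 and the integrated stress response, 6 rose and 0 fell, with 17 not passed (median 0.37). That is 26.1% higher and 0% lower, beside 7.69% and 7.48% over all tested genes. Ppp1r15a (log2 fold change 1.09), the pseudokinase gene Trib3 (0.92) and Ddit3 (1.01), which encodes CHOP, had the smallest p (edgeR adjusted p = 0.00133, 0.00154 and 0.00244), beside Cebpg, a partner of ATF4, Atf3 and Gadd45a. At an unadjusted p under 0.05, 9 were higher and 2 lower, and DESeq2 called 7 higher, limma voom 6 and limma on log2(FPKM + 1) 6, with 0 lower in each. Without knockout library 2, 12 rose and 2 fell, and without wild-type library 3, 3 rose. Of 19 genes of mTORC1 and amino acid sensing, 0 rose and 1 fell: Castor1, an arginine sensor (log2 fold change -0.51, edgeR adjusted p = 0.0264), with 0 falls with the replicate number as a block or without any 1 of the 4 libraries named for the folate list. That is 0% higher and 5.26% lower, under the 7.69% and 7.48% over all tested genes. At an unadjusted p under 0.05 none was higher, and the other 3 tools called 0 higher and 1 lower each; 2 were called higher without knockout library 2.

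**Figure D4:**
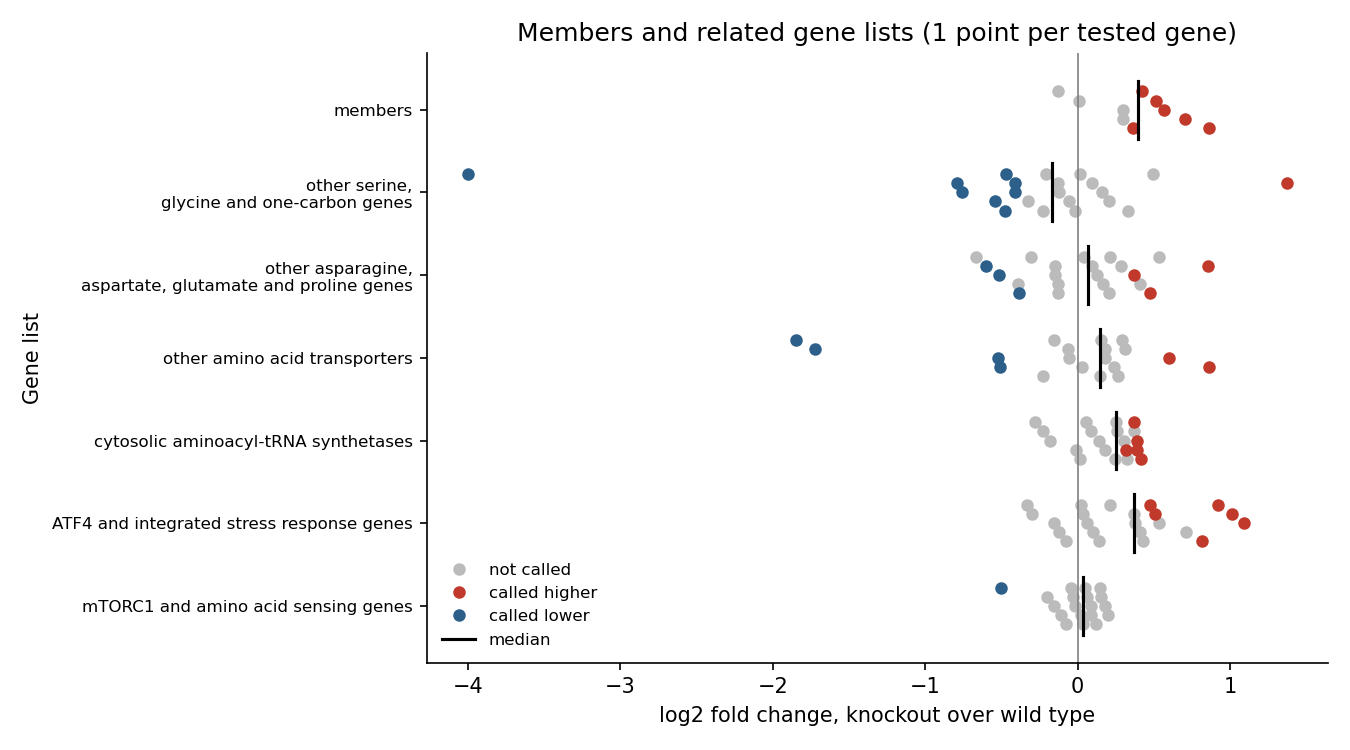
log2 fold change of knockout over wild type (x axis) for the members and 6 related lists (y axis), 1 point per tested gene; red and blue mark genes called higher and lower at an edgeR adjusted p under 0.05, grey those not called, and black lines the medians. The members' median is 0.39, and the point at -4.00 is Cth.

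The firmest rises were those of Psph and Pycr1. Each kept its call under all 18 alternatives of processing, test and libraries, with log2 fold changes of 0.65 to 0.75 for Psph and 0.76 to 0.98 for Pycr1 (edgeR, DESeq2 and limma adjusted p up to 0.0191 and 0.0192). The rises of Asns, Slc7a11, Aldh18a1 and Shmt2 were positive under every one of these but each lost its call in some. Slc7a11 lost it without knockout library 3 or wild-type library 3 (edgeR adjusted p = 0.0555 and 0.0757), and Aldh18a1 without those or knockout library 1 (0.0809 to 0.112). Shmt2 lost it without any 1 of the 4 libraries named for the folate list (edgeR adjusted p from 0.0851 to 0.118). Of the members, 6 were called without knockout library 2, 5 without wild-type library 1, 4 without wild-type library 2, 3 without knockout library 1, and 2, Psph and Pycr1, without knockout library 3 or wild-type library 3. Without both libraries that stood apart, 8 were called higher and 2, Psat1 (-0.14) and Phgdh (-0.13), lower (edgeR adjusted p = 0.0166 and 0.0289). That fit keeps 2 libraries a group and called 7556 genes in all, against 2252 with all 6 libraries. The GC content of the members had a median of 51.7%, from 40.7% for Slc7a11 to 57.4% for Shmt2, against 49.6% over tested genes.

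**Figure D5:**
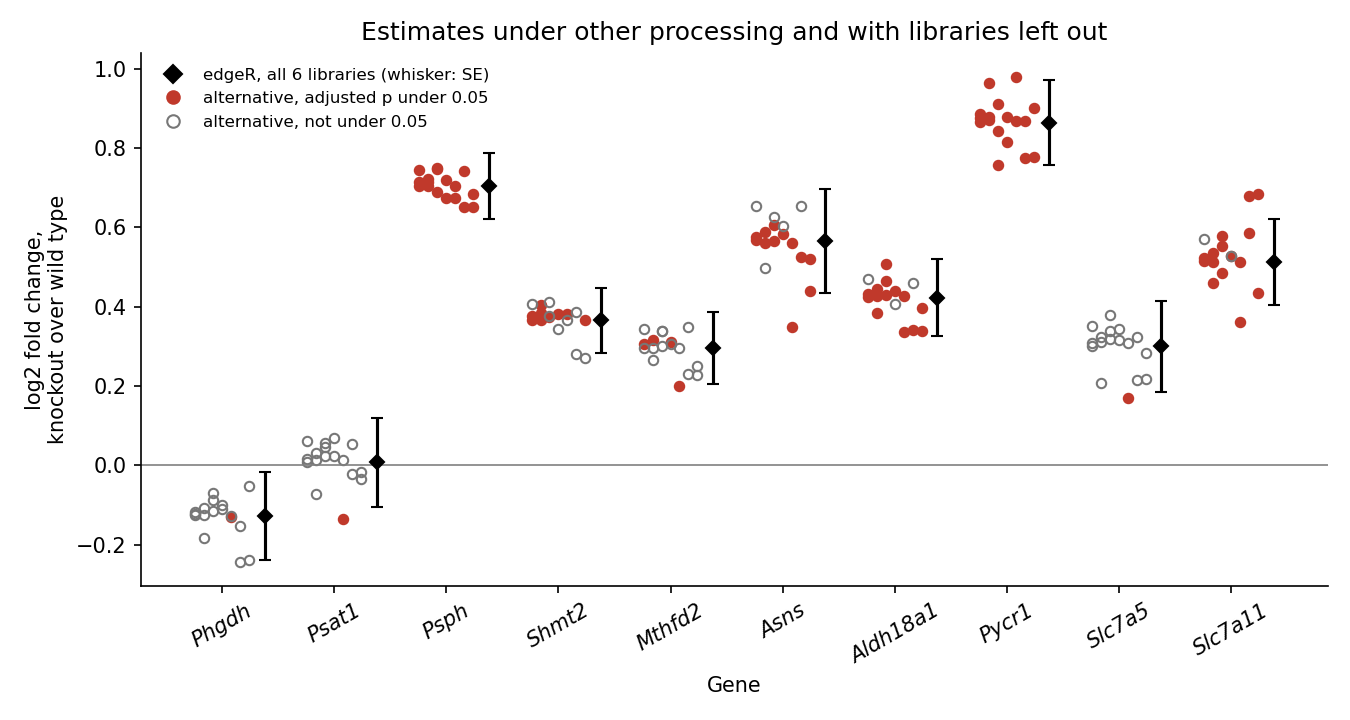
log2 fold change of knockout over wild type (y axis) for each member (x axis): the black diamond is the edgeR estimate from all 6 libraries with its SE, filled and open circles the estimates under alternatives of processing, test or libraries with an adjusted p under 0.05 or not. Psph and Pycr1 have filled circles only, while Phgdh and Psat1 lie near 0.

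In the authors' deposited table, 7 of the 10 members have an adjusted p under 0.05: the 6 named above and Mthfd2 (log2 fold change 0.29, adjusted p = 0.0445). The largest value in the authors' deposited table is that of Pycr1 at 0.82 and the lowest that of Phgdh at -0.11.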

How the data were processed

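RNA-seq of 3 Matr3 knockout and 3 wild-type Hepa1-6 libraries was used, grouped by sample titles; the labels' protocols name an mRNA-seq kit. Per the file headers, the authors deposited raw counts per gene and FPKM values (per gene length and library size), and for their own comparison a signal (mean scaled counts per group), log2 fold changes and p-values. Aligner and counter: not given in the sources used here. GRCm38 and mm10 are the builds named in the submitters' processing notes, but of 52133 gene identifiers shared with the GRCm38 annotation GENCODE M21, 1546 have the same coordinates there, among them 1 member; coordinates are printed as the table has them and their build is unsettled. Features without a gene name (159 rows, 0.242% of counts) stayed in the tests.

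Counts were tested with edgeR 4.0.16 in R 4.3.3 (filterByExpr, TMM, quasi-likelihood F test, no covariate), with Benjamini-Hochberg adjustment over 14842 genes, called under 0.05. CPM are TMM-scaled; SE follow from the F statistic. The members and lists were chosen with earlier results of these data known. Named were all members, the target Matr3, Atf4, Ddit3, Slc3a2 and paralogues, up to 3 called genes with the smallest p per list, and the 3 genes nearest in pattern to the member that moved most; any other name was picked with its values in view. The test was also run on simulated counts, but its pass mark covered only changes larger than those of the members. Alternatives were RLE factors, library totals, no filter, a mean of at least 1 CPM, a replicate block, libraries left out, GC and length trends removed, DESeq2 1.42.0, limma 3.58.1 (voom, or log2(FPKM + 1)) and an adjusted p under 0.01. GC content, from the longest GENCODE M21 transcript, was available for 98.8% of tested genes. Without molecular identifiers, reads need not be independent molecules. Results for 2 listed genes, and a ratio that uses 1 of them, are not reported here.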

Additional observations from a re-analysis of the deposited data

How the results depend on the processing

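The count of all called genes, 2252, ranged from 807 to 4295 when single libraries were left out, was 7556 without knockout library 2 and wild-type library 1, and 721 at an adjusted p under 0.01. The count of members called higher, 6, ranged from 2 to 6 when single libraries were left out and was 2 at an adjusted p under 0.01; that of members called lower, 0, was 2 without knockout library 2 and wild-type library 1. With the replicate number as a block, 1599 genes and 5 members higher were called, and with the block and GC and length trends removed, 2447 and 5. Same-numbered libraries deviated from their group means with correlations of 0.17, -0.031 and -0.19, so the numbers are not taken to pair them. Psat1 (0.0075) turned sign without knockout library 2 and wild-type library 1 (-0.14), after removal of GC and length trends (-0.022) and with the block added to that (-0.018), and ranged from -0.071 to 0.069 when single libraries were left out. Atf4 (0.061) was at -0.076 after removal of GC and length trends and -0.086 with the block added, and ranged from -0.017 to 0.25 when single libraries were left out. The log2 ratio of Slc7a11 to Slc3a2 (-0.082) ranged from -0.26 to 0.023. The cause of these changes was not tested.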

Other observations

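Tested genes within 100 kb of a member were read in the coordinates of the table. Of 44 such neighbours 7 were called higher and 2 lower, beside 7.69% higher and 7.48% lower over all tested genes. All 7 that were higher lay near Pycr1, where 16 genes were tested. They are P4hb, the protein disulphide isomerase that is also a subunit of prolyl 4-hydroxylase (1235 to 1595 CPM, log2 fold change 0.37), Anapc11 (0.32), Mcrip1 (0.74), Cenpx (0.38), the reductases Cbr2 (1.07) and Dcxr (0.96), and Notum (1.63, at 0.69 to 2.15 CPM), named after their values were seen (edgeR adjusted p from 0.00303 to 0.0461). No neighbour of Psat1, Phgdh, Psph, Shmt2 or Mthfd2 was called, and Asns and Slc7a11 had no tested neighbour.

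Across the 6 libraries, the 3 of 10822 genes averaging 5 CPM or more whose centred log2 CPM lay nearest to that of Pycr1 were Dock3, Trpm4 and Trim26, at root mean square differences of 0.0549, 0.0582 and 0.0624. Among pairs of members the nearest were Asns and Slc7a11, at 0.0554.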
